A study of Mus musculus with 4 samples.

Results

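Mitotic cell cycle genes were examined in testes of Lhcgr KO mice and control WT mice. The set was a list of 48 genes, and members were taken as probe sets whose sole annotated gene symbol is a listed gene, with the probe set of highest mean intensity kept for each. This gave 47 of the 48 genes among 19938 genes in all, 17 of S phase and 30 of G2 and mitosis, and Ccnb1 is not analysed here.

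Both groups, 2 samples of Lhcgr KO and 2 of control WT, were testes taken 4 weeks after busulfan at 44 mg/kg. Busulfan is an alkylating drug that depletes germ cells, and Lhcgr encodes the receptor through which luteinizing hormone acts on Leydig cells. Strain, age, the Lhcgr allele and whether the replicates came from separate animals are not given in the labels. P-values therefore speak only of how far these samples scatter, and part or all of that scatter may be technical. Total RNA was read on 1-colour Affymetrix whole-transcript arrays, with array medians between 198 and 215 intensity units. With 4 arrays, precision is limited by their number. Lhcgr itself is not analysed here, and the genotypes rest on the labels alone. The Sertoli cell markers Sox9, Wt1 and Cldn11 lay between 11.35 and 12.41 log2 intensity units on all 4 arrays, and the germ cell markers Ddx4, Dazl, Sall4, Sycp3, Prm1 and Tnp1 between 5.95 (Sycp3) and 8.12 (Dazl). The epididymal gene Adam7 measured 11.04 on WT replicate 2 and 5.92 or less on the other 3 arrays, so values are also given without that array where it matters.

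A dividing cell commits to a new cycle when cyclin E and the E2F transcription factors switch on DNA replication. Replication origins are licensed by Cdc6 and Cdt1, which load the Mcm2 to Mcm7 helicase. Entry into mitosis follows when the kinase Cdk1 is bound by cyclins A and B, after which kinesins, kinetochore proteins and checkpoint kinases separate the chromosomes. In the adult testis the cells known to divide are mainly spermatogonia, many of these genes also serve the meiotic divisions, and adult Sertoli cells are normally out of the cycle.

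Promoters of the E2F-driven S phase genes and of the mitotic genes are known to carry different elements, the E2F site in the first and the cell cycle homology region (CHR) with CCAAT boxes in the second. The windows below, from RefSeq on GRCm38.p6, run from 250 bases before to 50 bases after the annotated gene start, 5′ to 3′ on the gene's strand. They are those of Cdk1 (chr10:69352863-69353162, minus strand), Ccnb2 (chr9:70421505-70421804, minus strand) and Prc1 (chr7:80294201-80294500, plus strand), the members with the largest differences, and of Rrm2 (chr12:24708004-24708303, plus strand), the S phase member with the largest. Capitals mark matches on either strand to TTTGAA (CHR), CCAAT, and TTGGCGC or TTCGCGC (E2F), none of which overlap in these windows. Prc1 has 2 listed windows, of which the first is shown.
Cdk1: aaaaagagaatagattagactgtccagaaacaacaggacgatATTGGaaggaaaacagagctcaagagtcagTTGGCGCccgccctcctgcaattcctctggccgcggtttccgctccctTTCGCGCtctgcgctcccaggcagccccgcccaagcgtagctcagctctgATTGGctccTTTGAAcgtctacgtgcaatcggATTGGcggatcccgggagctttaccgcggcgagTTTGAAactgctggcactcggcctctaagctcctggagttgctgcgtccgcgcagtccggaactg
Ccnb2: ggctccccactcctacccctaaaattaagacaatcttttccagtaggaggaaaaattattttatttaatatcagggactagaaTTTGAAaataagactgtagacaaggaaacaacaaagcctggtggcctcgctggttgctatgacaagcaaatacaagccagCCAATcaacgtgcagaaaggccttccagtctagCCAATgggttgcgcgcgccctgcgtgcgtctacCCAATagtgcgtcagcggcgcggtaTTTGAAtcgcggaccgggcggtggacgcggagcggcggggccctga
Prc1: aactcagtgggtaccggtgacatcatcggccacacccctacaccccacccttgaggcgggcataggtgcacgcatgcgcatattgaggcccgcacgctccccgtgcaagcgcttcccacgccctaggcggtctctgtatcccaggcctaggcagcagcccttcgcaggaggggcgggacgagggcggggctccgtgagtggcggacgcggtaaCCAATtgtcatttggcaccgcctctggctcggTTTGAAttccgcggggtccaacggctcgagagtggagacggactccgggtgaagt
Rrm2: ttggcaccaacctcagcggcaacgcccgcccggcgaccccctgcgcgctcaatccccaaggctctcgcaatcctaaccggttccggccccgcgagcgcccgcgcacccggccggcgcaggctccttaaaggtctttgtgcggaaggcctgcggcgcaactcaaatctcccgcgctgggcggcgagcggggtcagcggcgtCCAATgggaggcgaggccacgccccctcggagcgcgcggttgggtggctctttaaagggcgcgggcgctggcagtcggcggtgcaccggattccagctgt
Cdk1 holds all 3 kinds of match, with CHR letters at bases -71 to -66 and -15 to -10 before the start and E2F letters at -178 to -172 and -130 to -124. Ccnb2 holds CHR letters at -167 to -162 and at 5 to 10, Prc1 holds them at -5 to 1, and Rrm2 holds a CCAAT box alone. A window was listed for 24 of the 30 mitosis members and 14 of the 17 S phase members, the others being Foxm1, Ccna2, Cdc25c, Aurkb, Tpx2 and Kif20a, and Ccne2, Gmnn and Mcm4. CHR letters were in 18 of 24 mitosis windows (75%) and 2 of 14 S phase windows (14.3%), against 15.2% of 15614 windows of all genes. E2F letters were in 2 of 24 mitosis windows (8.33%) and 6 of 14 S phase windows (42.9%), against 5.41% of all. A CCAAT box was in 18 of 24 and 9 of 14, against 38.2% of all. These matches describe letters, not binding.

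Cdk1 alone among the 47 genes passed the test, and it was lower in Lhcgr KO testes. Cdk1 (probe set 10369815) is the cyclin-dependent kinase that drives entry into mitosis. It measured 8.86 and 8.68 log2 intensity units on the Lhcgr KO arrays, against 9.80 and 9.67 on the WT arrays. Both KO arrays lay below both WT arrays by a gap larger than the distance between arrays of either genotype. The means were 8.77 ± 0.12 in Lhcgr KO and 9.73 ± 0.10 in WT (SD, n = 2 each), which is -0.97 ± 0.12 (SE) as a log2 fold change, with adjusted p = 0.0146 in the limma fit. On the linear scale WT was 1.95-fold above Lhcgr KO, with a 95% confidence interval of 1.59 to 2.40. Without KO replicate 1 the change was -1.05 and without KO replicate 2 it was -0.88, with limma adjusted p = 0.118 and 0.152, the lone KO array being assumed to vary like the WT pair. In whole tissue, fewer cells of a type and less RNA per cell cannot be told apart.

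The count of 1 lower gene of 47 (2.13%) is near the background of 2.14% of all 19938 genes that were lower by the same limma test. No member was higher, where 0.963% of all genes were, and 3.1% of all genes passed in either direction. Of the members, Cdk1, Ccnb2 and Prc1 were at least 0.5 log2 units lower without overlap of the arrays and none was as much higher, where 4.87% and 2.99% of all genes were. At an unadjusted p under 0.05, limma gave 7 members lower and 1 higher, against backgrounds of 9.78% lower and 12.9% higher over all genes. For the 46 members that did not pass, the 95% confidence interval of the log2 fold change lay within -1 to 1 in 45, and Mcm6 was the exception. A change by a factor of 2 thus lay outside the interval of 45 of these 46 members. Smaller changes in these members did not pass the test, while Cdk1 passed at 1.95-fold.

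**Figure D1:**
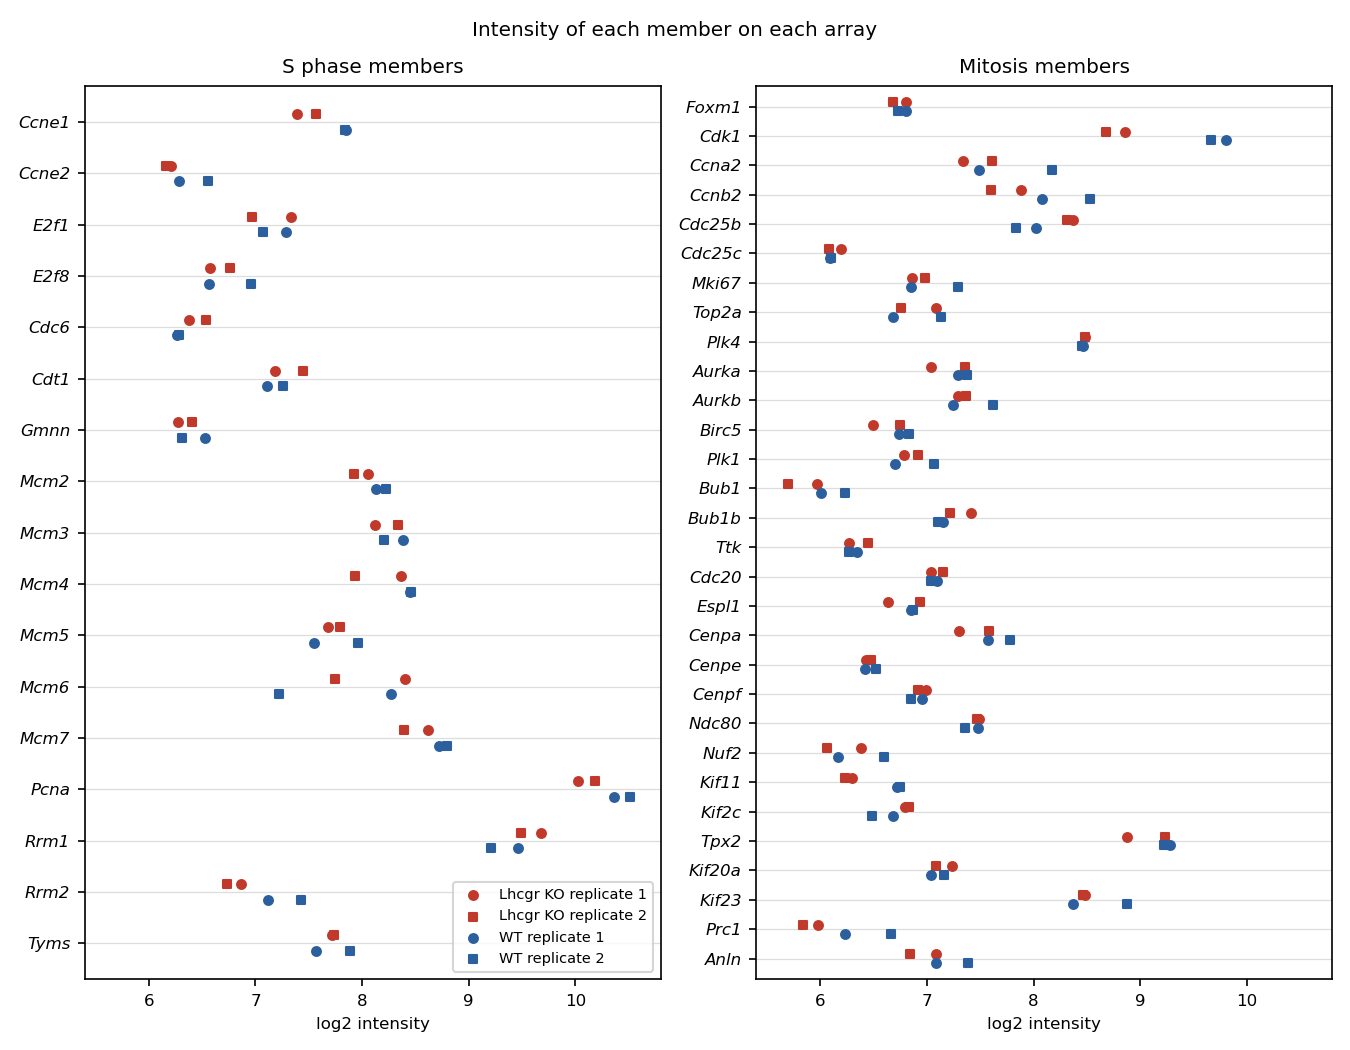
Log2 intensity (x axis) of each S phase member (left) and mitosis member (right) on each array, with Lhcgr KO in red above WT in blue, circles for replicate 1 and squares for replicate 2. Cdk1 shows a gap between genotypes, with KO at 8.86 and 8.68 and WT at 9.80 and 9.67. The arrays of 28 of the 47 genes overlap, beside those of 8131 of all 19938 genes.

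Among the S phase members, none passed the test, and 12 of 17 (70.6%) had a negative log2 fold change, against 39.4% of all genes. At an unadjusted p under 0.05 (limma), 3 were lower (17.6%) and none higher, against 9.78% and 12.9% of all genes. Both KO arrays lay below both WT arrays for 7 of 17 genes and above for 2, where over all genes 22.4% lay below and 36.8% above. These shares differed with intensity. Under the median mean intensity, 3 of 10 S phase members lay below and 1 above, beside 9.91% and 49.2% of all genes. Over it, 4 of 7 lay below and 1 above, beside 34.9% and 24.5% of all genes. The cyclin E genes, whose products activate Cdk2 at the start of S phase, both had KO arrays below WT arrays. Ccne1 measured 7.39 and 7.57 in Lhcgr KO, against 7.85 and 7.84 in WT (log2 fold change -0.36 ± 0.12, SE, adjusted p = 0.157). Ccne2 measured 6.20 and 6.16 in Lhcgr KO, against 6.29 and 6.55 in WT (adjusted p = 0.309). The E2F factors, the activator E2f1 and the repressor E2f8, had overlapping arrays, with log2 fold changes of -0.03 and -0.09.

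Licensing genes showed small differences of both signs. Cdc6, which helps load the helicase, measured 6.37 and 6.53 in Lhcgr KO, against 6.26 and 6.28 in WT. Its partner Cdt1 measured 7.18 and 7.45 in KO, against 7.11 and 7.26 in WT, and Gmnn (geminin, the inhibitor of Cdt1) 6.27 and 6.41, against 6.52 and 6.31. Their log2 fold changes were 0.18 for Cdc6, 0.13 for Cdt1 and -0.08 for Gmnn, none past the test. Of the 6 helicase subunits, Mcm2, Mcm4 and Mcm7 had both KO arrays below both WT arrays, with log2 fold changes of -0.19, -0.31 and -0.25 and adjusted p-values between 0.275 and 0.352. Mcm3 and Mcm5 had overlapping arrays and changes of -0.06 and -0.01. Mcm6 stood apart from the other subunits: it measured 8.40 and 7.74 in Lhcgr KO, against 8.27 and 7.22 in WT. Replicate 1 was above replicate 2 in both genotypes, by 0.66 in KO and 1.05 in WT, and this spread gave the widest interval of all members, from -0.53 to 1.18. The products of these genes form one complex, and no other subunit had replicate 1 above replicate 2 in both genotypes.

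Pcna, the sliding clamp of DNA polymerases, measured 10.03 and 10.19 in Lhcgr KO, against 10.36 and 10.51 in WT, with no overlap (-0.33 ± 0.12, SE, adjusted p = 0.191). A second probe set of Pcna gave -0.34. The ribonucleotide reductase subunits, which make deoxynucleotides, differed in sign. Rrm2, the subunit whose level follows S phase, measured 6.87 and 6.73 in Lhcgr KO, against 7.12 and 7.43 in WT, the largest difference of the S phase group (-0.47 ± 0.14, SE, adjusted p = 0.135). Rrm1, the large subunit, measured 9.67 and 9.49 in Lhcgr KO, against 9.46 and 9.21 in WT (0.25 ± 0.14, SE, adjusted p = 0.309). Tyms, thymidylate synthase, had KO values of 7.72 and 7.73 inside the WT values of 7.57 and 7.88. The 2 subunits of this reductase thus lay on opposite sides of WT, and neither difference passed the test.

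**Figure D2:**
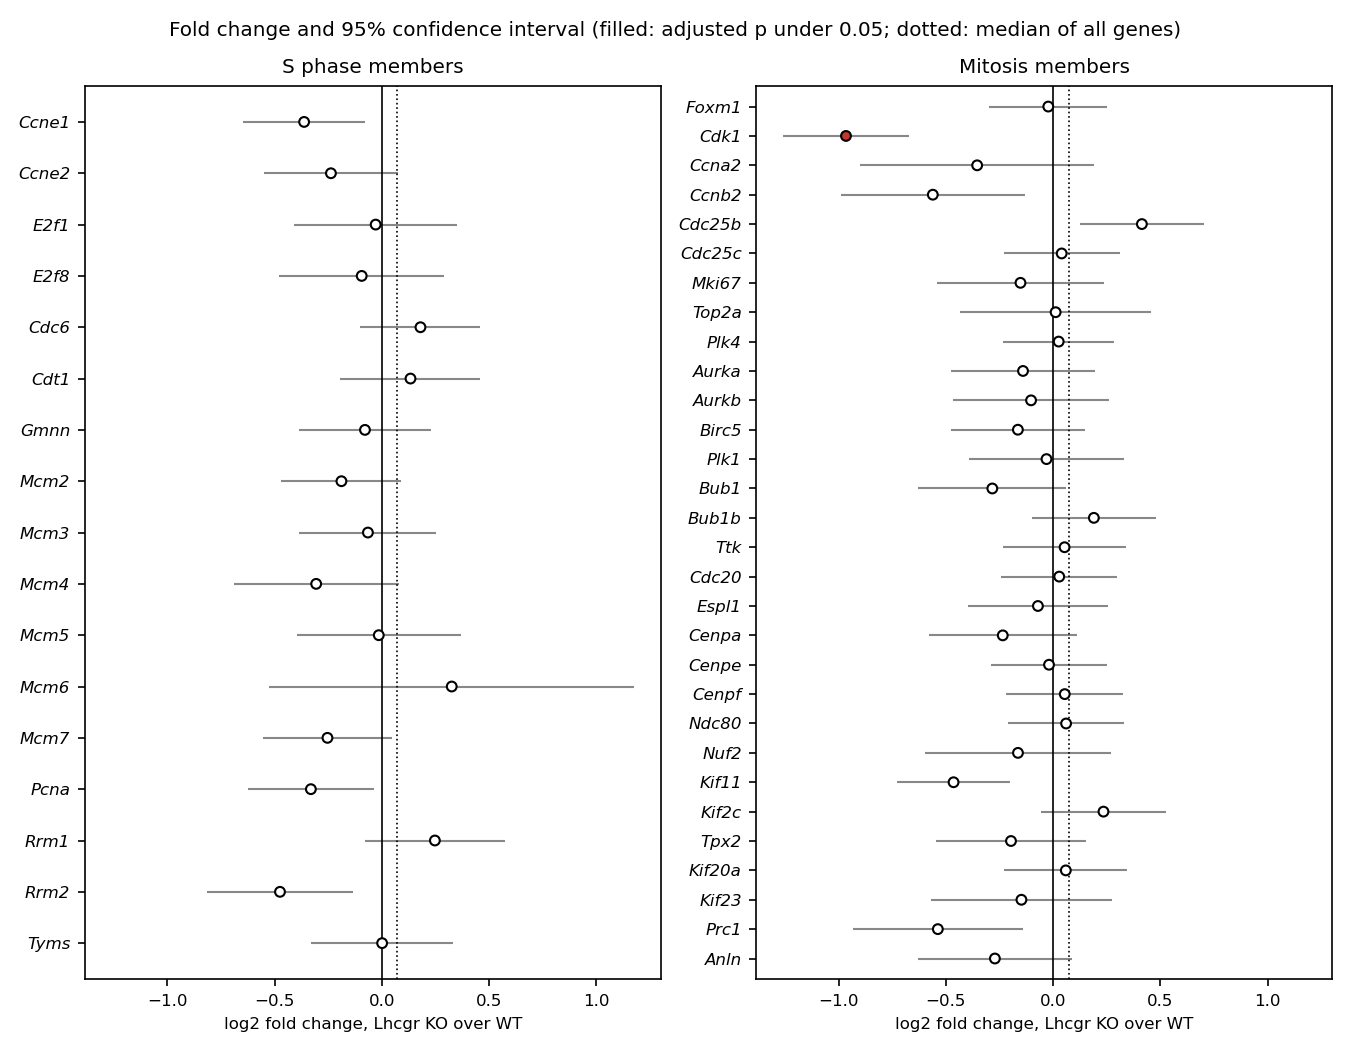
Log2 fold change, Lhcgr KO over WT (x axis), of each member with its 95% confidence interval; the filled point passed the limma test, and the dotted line is the median of all genes, 0.07. Cdk1 at -0.97 is the sole filled point, and the interval of Mcm6 reaches from -0.53 to 1.18.

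Among the other mitosis members, none of 29 passed the test. Both KO arrays lay below both WT arrays for 6 of 30 genes (20%), Cdk1 included, and above for 4 (13.3%). Over all genes 22.4% lay below and 36.8% above. Under the median mean intensity, 4 of 24 mitosis members lay below (16.7%) and 2 above (8.33%), beside 9.91% and 49.2% of all genes. Over it, 2 of 6 lay below and 2 above, beside 34.9% and 24.5% of all genes. The cyclin partners of Cdk1 had lower KO means than WT means but larger spread. Ccnb2, a B-type cyclin, measured 7.88 and 7.61 in Lhcgr KO, against 8.08 and 8.53 in WT (-0.56 ± 0.18, SE, adjusted p = 0.151). Ccna2, the cyclin of S and G2 phase, measured 7.34 and 7.61 in Lhcgr KO, against 7.49 and 8.17 in WT, with overlap (-0.35 ± 0.23, SE, adjusted p = 0.364). In both cyclins WT replicate 2 was the highest array. Without WT replicate 1 the change in Ccnb2 was -0.78 with limma adjusted p = 0.0386, and without WT replicate 2 it was -0.34 with adjusted p = 0.423.

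The phosphatase Cdc25b, which activates Cdk1, was the member with the largest positive difference, at 8.37 and 8.32 in Lhcgr KO, against 8.03 and 7.83 in WT (0.41 ± 0.12, SE, adjusted p = 0.131). Its relative Cdc25c had overlapping arrays between 6.08 and 6.20 and a change of 0.04. Foxm1, the transcription factor of the G2 and mitosis programme, measured 6.80 and 6.68 in Lhcgr KO, against 6.80 and 6.73 in WT, so the arrays coincided within 0.12. Mki67, the widely used proliferation marker, measured 6.86 and 6.98 in KO, against 6.86 and 7.29 in WT. Top2a, which untangles chromosomes, had probe sets that disagreed: the brighter gave 0.01 with overlapping arrays and the weaker -0.38 without overlap. Neither Mki67 nor the brighter probe set of Top2a passed the test.

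Mitotic kinases showed little difference between genotypes. Plk4, the kinase of centriole duplication, measured 8.48 on both KO arrays, against 8.46 and 8.45 in WT, a gap without overlap but of 0.03 log2 units. Aurka, Aurkb and Plk1, kinases of the spindle and of chromosome segregation, and Birc5 (survivin), which works with Aurkb, had overlapping arrays and log2 fold changes between -0.16 and -0.03. Among checkpoint genes, Bub1 was lower on both KO arrays, at 5.97 and 5.70, against 6.01 and 6.23 in WT (adjusted p = 0.282). Bub1b was higher on both, at 7.41 and 7.21, against 7.15 and 7.10 (adjusted p = 0.364). The checkpoint kinase Ttk, the anaphase activator Cdc20 and separase (Espl1) had overlapping arrays and changes of 0.05, 0.03 and -0.07. The 5 kinetochore genes all overlapped between genotypes: the centromeric histone Cenpa (-0.24), the motor Cenpe (-0.02), Cenpf (0.05), and the Ndc80 complex members Ndc80 (0.06) and Nuf2 (-0.16).

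Among spindle genes, Kif11, the motor that pushes spindle poles apart, came nearest to the threshold after Cdk1. Kif11 measured 6.30 and 6.23 in Lhcgr KO, against 6.72 and 6.74 in WT, without overlap and with little spread (-0.46 ± 0.11, SE, adjusted p = 0.0857). After quantile normalization it was called lower (-0.59, limma adjusted p = 0.0459). The microtubule-depolymerizing kinesin Kif2c had the opposite sign, at 6.80 and 6.83 in KO, against 6.68 and 6.48 in WT (adjusted p = 0.289), and the spindle assembly factor Tpx2 overlapped (-0.20). Of the cytokinesis genes, Prc1, which bundles midzone microtubules, measured 5.98 and 5.84 in Lhcgr KO, against 6.23 and 6.66 in WT (-0.54 ± 0.17, SE, adjusted p = 0.142). Without WT replicate 1 Prc1 passed (-0.76, limma adjusted p = 0.0316), and without WT replicate 2 it did not (-0.32, adjusted p = 0.409). Anln, an actin-binding protein of the cleavage furrow, had a change of -0.27, with KO replicate 1 and WT replicate 1 both at 7.09. The midzone kinesins Kif20a and Kif23 overlapped (0.06 and -0.15).

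S phase and mitosis members had nearly the same median log2 fold change, -0.08 and -0.09, beside a median of 0.07 over all genes. Genes below the median mean intensity had a median change of 0.16 and those above it -0.04, so the members' medians were also read by intensity. The 34 members in the weaker group had a median of -0.05 and the 13 in the brighter group -0.19. Across arrays, the median of the S phase members was 7.68 and 7.73 log2 units in Lhcgr KO, against 7.57 and 7.84 in WT. That of the mitosis members was 7.04 and 6.96 in Lhcgr KO, against 6.998 and 7.12 in WT. The genotypes overlapped in both. Without WT replicate 2 the median change of the mitosis members was 0.00, and without WT replicate 1 it was -0.20. Without KO replicate 1 it was -0.03 and without KO replicate 2 it was -0.12, so its size depended on the arrays kept. Scaling mattered too: the count of mitosis members with both KO arrays below both WT arrays was 6 of 30 as deposited, 10 with arrays centred on their medians and 15 after quantile normalization, beside 22.4%, 28.9% and 23.7% of all genes.

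Arrays of the same genotype also differed in these genes. WT replicate 2 was above WT replicate 1 for 30 of 47 members (63.8%), against 42.2% of all genes, and KO replicate 2 was above KO replicate 1 for 22 of 47. Ccna2 differed by 0.68 between the WT arrays, Kif23 by 0.51, Top2a by 0.45, Ccnb2 and Prc1 by 0.44 and Mki67 by 0.43, each higher on replicate 2. Cdk1 differed by -0.17 between the KO arrays and by -0.14 between the WT arrays (replicate 2 minus replicate 1). WT replicate 2 is the array with high epididymal markers, and the part of that tissue in these values was not tested. In Cdk1 the change was as large without that array, at -1.03 with limma adjusted p = 0.0108.

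**Figure D3:**
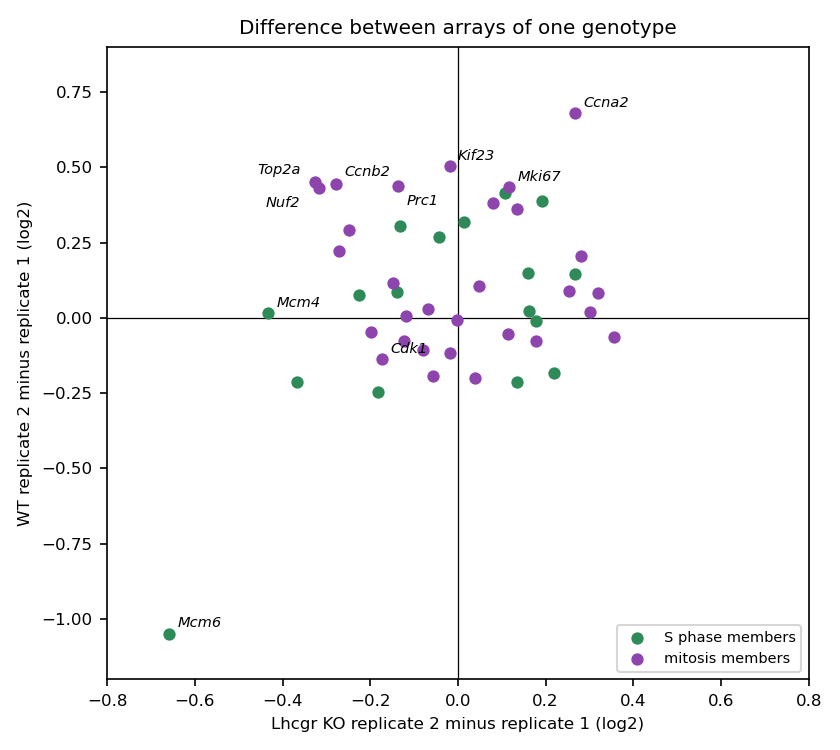
Replicate 2 minus replicate 1 in log2 units for each member, in Lhcgr KO (x axis) and in WT (y axis), with S phase members in green and mitosis members in purple. Mcm6 is low on replicate 2 in both genotypes (-0.66 and -1.05), and a group of mitosis genes that includes Ccna2 and Kif23 is high on WT replicate 2.

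Cell cycle genes outside the list were read in 5 further lists. Of 44 other replication genes, 4 fell in Lhcgr KO and none rose. Chaf1b, a subunit of the chromatin assembly factor that packs new DNA, measured 7.65 and 7.77 in Lhcgr KO, against 8.66 and 8.55 in WT (-0.89 ± 0.12, SE, limma adjusted p = 0.0149). Cdc7, the kinase that fires licensed origins, measured 6.72 and 6.62 in Lhcgr KO, against 7.46 and 7.29 in WT (-0.70, adjusted p = 0.0344). The clamp loader subunit Rfc5 (-0.68, adjusted p = 0.0317) and the helicase cofactor Cdc45 (-0.66, adjusted p = 0.0473) also fell. The share that fell, 9.09%, stands beside the background of 2.14%, and the list's median of -0.07 was near that of the S phase members. With the replicate number as a block, Rfc5 and Cdc45 had adjusted p = 0.0502 and 0.0741.

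Of 68 other mitosis genes, 2 fell (2.94%, near the 2.14% of all genes) and none rose. Mad2l1, the spindle checkpoint protein Mad2, measured 7.68 and 7.67 in Lhcgr KO, against 8.39 and 8.48 in WT (-0.76 ± 0.11, SE, limma adjusted p = 0.0212). Spc25, a partner of Ndc80 and Nuf2 in the kinetochore, measured 6.17 and 5.96 in Lhcgr KO, against 6.93 and 6.74 in WT (-0.77 ± 0.13, SE, adjusted p = 0.0359), while Ndc80 and Nuf2 themselves overlapped between genotypes. In this list both KO arrays lay below both WT arrays for 36 of 68 genes (52.9%), beside 22.4% of all genes and 6 of the 30 mitosis members, and the median change was -0.15. After quantile normalization the count was 43 and the median -0.22. As deposited, 28 of the 50 genes under the median mean intensity lay below (56%), beside 9.91% of all genes. Over it, 8 of 18 lay below (44.4%), beside 34.9% of all genes. The difference between this list and the mitosis members was not tested.

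Of 20 inhibitors of the cell cycle, 3 fell (15%, beside 2.14% of all genes) and none rose (0.963% of all genes). Cdkn2b, the inhibitor p15 of Cdk4 and Cdk6, had the largest change of any cell cycle gene examined, at 7.33 and 6.79 in Lhcgr KO, against 8.70 and 8.79 in WT (-1.68 ± 0.18, SE, limma adjusted p = 0.00869). The stress-induced Gadd45g (-0.79, adjusted p = 0.0298) and the retinoblastoma gene Rb1 (-0.57, adjusted p = 0.0467) also fell, and Rb1 had adjusted p = 0.0628 after quantile normalization and 0.0751 with the replicate number as a block. Of 27 G1 cyclins and regulators 1 rose and none fell, where 0.963% of all genes rose and 2.14% fell. The gene that rose was Lin9, a subunit of the complex that binds CHR elements. It measured 8.001 and 7.96 in Lhcgr KO, against 7.27 and 7.32 in WT (0.68 ± 0.11, SE, limma adjusted p = 0.0284). Of 24 meiotic genes none passed, and the median was 0.08. At an unadjusted p under 0.05 (limma), 3 of these genes were higher and 1 lower. Together they make 16.7%, against 22.7% of all genes (12.9% higher and 9.78% lower). The lowest p-values there were those of Hormad1 (0.46, adjusted p = 0.0941) and Syce2 (-0.67, adjusted p = 0.107), genes of the meiotic chromosome axis and synaptonemal complex. The 5 lists together hold 183 measured genes, of which 9 fell (4.92%) and 1 rose, beside 2.14% and 0.963% of all genes. Without KO replicate 1, and likewise without KO replicate 2, none of these 10 passed. Without WT replicate 1, Cdc7, Cdc45, Spc25 and Rb1 did not pass (limma adjusted p = 0.0661, 0.0908, 0.0602 and 0.0911), and without WT replicate 2, Rfc5, Cdc45, Gadd45g and Rb1 did not (0.0589, 0.0521, 0.0602 and 0.0972). Chaf1b, Mad2l1, Cdkn2b and Lin9 passed without either WT array.

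**Figure D4:**
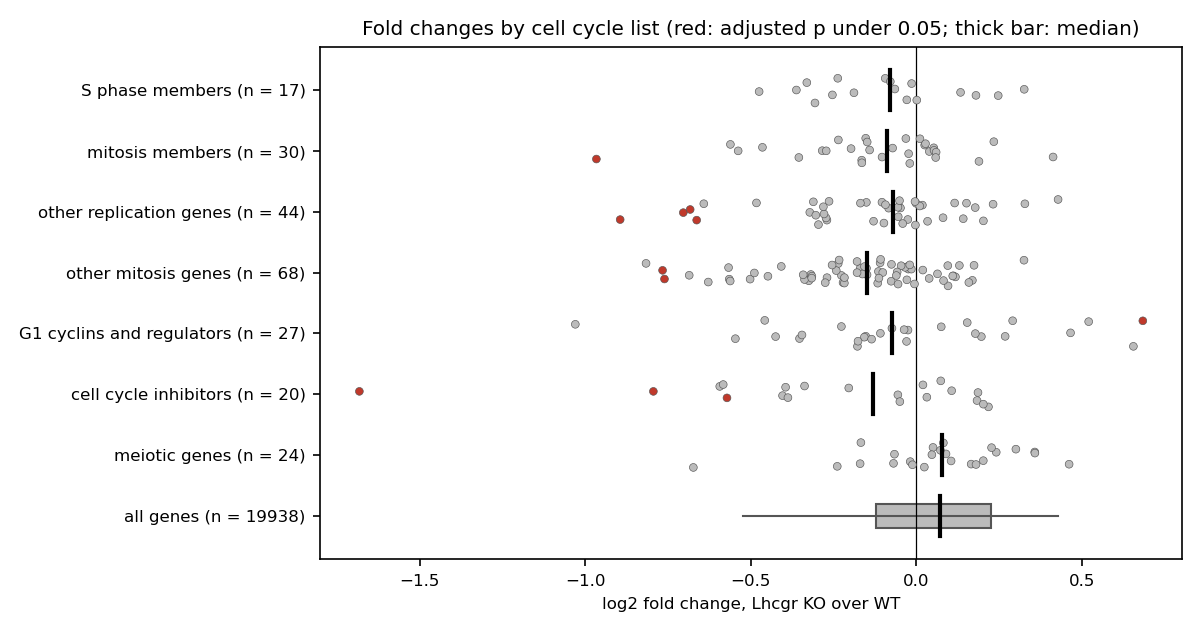
Log2 fold change, Lhcgr KO over WT (x axis), of each gene in the member groups and in 5 other cell cycle lists, with thick bars at the medians and genes past the limma test in red; the bottom row gives the median, interquartile range (box) and 5th to 95th percentiles (line) of all genes. Medians run from -0.15 in other mitosis genes to 0.08 in meiotic genes, and most red points lie below 0.

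Markers of cells that a testis sample can hold were read beside Cdk1. Of 26 macrophage markers 8 fell (30.8%, beside 2.14% of all genes). The summed linear intensity of this list was 11476 and 12161 in Lhcgr KO, against 16763 and 20120 in WT. Of 16 adult Leydig cell markers 8 fell (50%), with sums of 19984 and 18565 in KO, against 43158 and 29605 in WT. In both lists most measured members had both KO arrays below both WT arrays, 23 of 26 (88.5%) and 12 of 16 (75%), beside 22.4% of all genes. Of 28 spermatogonial markers 2 fell (7.14%), Tspan8 (-2.73, limma adjusted p = 0.00203) and Etv5 (-1.07, adjusted p = 0.00813), but the median log2 fold change was 0.09. Both KO arrays lay above both WT arrays for 10 genes (35.7%) and below for 6 (21.4%), near the 36.8% and 22.4% of all genes. The summed intensity, in which Tspan8 and Etv5 count, was 6456 and 6273 in KO, against 7636 and 6458 in WT. Of 20 spermatocyte markers Hspa2 alone fell (-0.87, limma adjusted p = 0.0374), 5% of the list, while the median was 0.08. In this list 6 genes lay above (30%) and 3 below (15%). The spermatocyte sums, Hspa2 included, were 3652 and 3768 in KO, against 4167 and 3945 in WT. The sums of the spermatogonial and spermatocyte lists thus were lower in KO, while the medians of these lists were near the 0.07 of all genes. In the spermatogonial list KO replicate 1 (6456) and WT replicate 2 (6458) nearly met. The spermatid sums overlapped between genotypes, at 4050 and 4288 in KO, against 5553 and 3890 in WT. None of 26 spermatid, 17 lymphocyte and 17 peritubular and smooth muscle markers passed, with 5, 3 and 8 of them (19.2%, 17.6% and 47.1%) under an unadjusted p of 0.05 in either direction (limma), against 22.7% of all genes. Of 25 Sertoli cell markers 1 rose and 1 fell, of 18 endothelial markers 1 rose, and of 22 epididymal and 7 red cell markers 1 each fell. Over all genes 0.963% rose and 2.14% fell. No marker is listed at 0, since deposited values begin at 16. Over the 11 marker lists 22 genes fell, a count that changed with the array left out, as did the count over all genes. The part of these cells in the lower Cdk1 was not tested.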

How the data were processed

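Total RNA of busulfan-treated testes was hybridised, biotin-labelled, to 1-colour Affymetrix whole-transcript arrays, per the labels. The deposited values are linear intensities per probe set, with a lowest value of 16. How they were summarised, background-corrected and normalised is not given in the sources used here, and the submitters' processing notes name the build mm9. Probe sets were named from the platform annotation: of 28856, 21789 had 1 symbol, 1621 several and 5446 none. Those with 1 symbol were kept, with the brightest taken per gene (999 genes had several), which gave 19938 genes. Intensities were taken to log2 and 2 Lhcgr KO arrays were compared with 2 WT arrays with limma 3.58.1 in R 4.3.3 (lmFit and eBayes, two-sided, no covariates), with Benjamini-Hochberg adjustment over all genes and a threshold of 0.05. The procedure was tested on simulated data. Errors of fold changes are limma's moderated standard errors.

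The members, the 5 other cell cycle lists and the 11 marker lists were chosen with earlier results of these data known. Every member is named, and of each other cell cycle list up to 4 genes past the threshold, or the 2 with the lowest p; marker lists are given as counts and sums, with genes named for the spermatogonial and spermatocyte lists. Alternatives were quantile normalization, centring of arrays, leaving out the lowest 25% of genes, subtracting 15 before log2, the mean of a gene's probe sets, an intensity trend, a replicate block and leaving out each array. Same-numbered arrays of the 2 genotypes had deviations from the group means that correlated at 0.02, so they were not treated as pairs.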

Additional observations from a re-analysis of the deposited data

How the results depend on the processing

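Cdk1 kept its direction and passed the threshold under all 7 alternatives that kept 4 arrays, with log2 fold changes of -1.03 to -0.91. Over all genes, 192 were higher and 426 lower as reported, and 109 and 280 with 15 subtracted before log2. With the replicate number as a block, 173 genes were higher and 399 lower, and Cdk1 had limma adjusted p = 0.0178; this block removed the calls of Rfc5, Cdc45 and Rb1 but of no member, and same-numbered arrays were not pairs by the labels or the correlation of 0.02. With 15 subtracted, the same 3 genes had adjusted p = 0.0522, 0.0681 and 0.0749. Quantile normalization gave 2 lower members (Cdk1 and Kif11) and 2 higher genes in the other cell cycle lists, where the intensity trend also gave 2; marker genes that were higher numbered 2 as reported and 1 with 15 subtracted or with the block. Without each array in turn, 2 to 313 genes were higher and 16 to 726 lower over all genes, 0 to 3 members were lower, 0 to 3 other cell cycle genes were higher and 0 to 8 lower, and 0 to 6 markers were higher and 3 to 46 lower. The median log2 fold change ran from -0.22 to -0.011 in S phase members and from -0.20 to 0.0013 in mitosis members. Leaving out an array leaves 1 in a group, and the spread within a group is then taken from the other group's pair alone. Over all genes, calls were fewer without either KO array and more without either WT array. The counts of these fits therefore cannot be set against those of 4 arrays.

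The members that turned sign were all short of the threshold as reported. Their log2 fold changes after quantile normalization were Tyms -0.052, Cdc25c -0.098, Top2a -0.10, Ttk -0.094, Cdc20 -0.089, Cenpf -0.065, Ndc80 -0.031 and Kif20a -0.054. With arrays centred on their medians they were Tyms -0.064, Cdc25c -0.026, Top2a -0.054, Plk4 -0.040, Ttk -0.012, Cdc20 -0.037, Cenpf -0.012, Ndc80 -0.0052 and Kif20a -0.0066, and with the mean of probe sets Top2a gave -0.18. Without each array in turn, the ranges were E2f1 -0.21 to 0.16, E2f8 -0.29 to 0.10, Gmnn -0.18 to 0.028, Mcm3 -0.17 to 0.046, Mcm5 -0.22 to 0.19, Mcm6 -0.20 to 0.85, Tyms -0.16 to 0.16, Foxm1 -0.084 to 0.038, Cdc25c -0.020 to 0.099, Mki67 -0.37 to 0.064 and Top2a -0.21 to 0.24. Further ranges were Aurka -0.30 to 0.019, Aurkb -0.29 to 0.087, Plk1 -0.21 to 0.15, Ttk -0.036 to 0.14, Cdc20 -0.029 to 0.085, Espl1 -0.22 to 0.079, Cenpe -0.072 to 0.033, Nuf2 -0.38 to 0.052, Kif20a -0.015 to 0.13 and Kif23 -0.40 to 0.10. The cause was not tested. The 2 arrays per group limit the precision, detection calls were not used, and 14 of the 47 members lay in the lowest 25% of genes by mean intensity.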
